A study of Mus musculus with 8 samples.

Results

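Autophagy receptors and lysosome genes are described here as a set of 35 genes, 12 of autophagy and 23 of the lysosome, out of 55492 genes in the deposited tables. They were chosen by name from a list written with earlier results of these data known, and no measured value entered the rule. Polyadenylated RNA of Yumm5.2, a line of mouse melanoma cells of strain C57B/6J, was sequenced: 4 libraries came from cells given 4-OI, a cell-permeable form of itaconate, and 4 from cells given DMSO, the control reagent, all for 20 h. Itaconate is a metabolite that activated macrophages make, and the labels state no dose of 4-OI. The groups model 1 compound in 1 cell line. The labels do not tie the libraries to separate cultures, so a p-value reflects the scatter among these 8 libraries alone, part of which may be technical.

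Total counts ranged from 25664999 to 31185027 in the 4-OI libraries and from 22962963 to 31361677 in the DMSO libraries. Of 9 melanocyte markers, the 7 genes Tyr, Tyrp1, Dct, Mlana, Sox10, Slc45a2 and Oca2 had at most 2 counts in any library, so the defining transcripts of pigment cells were at or near 0 in a line labelled as melanoma. The summed level of the 9 was 3.51 to 3.97 TPM with 4-OI and 2.37 to 3.05 TPM with DMSO. Most of it was Mitf, at a mean of 3.45 TPM with 4-OI and 2.285 TPM with DMSO. Pmel averaged 0.255 TPM with 4-OI and 0.31 TPM with DMSO. Mitf belongs to the same transcription factor family as Tfeb and Tfe3. Macrophages are rich in lysosomes, and of their markers Adgre1, Lyz2 and Tyrobp had a count of 0 in all 8 libraries. Others were detected at low counts, with Cd74 at 2 to 14 per library, Ptprc at 1 to 8 and Csf1r at 0 to 9. The summed level of 9 macrophage and leukocyte markers was 0.34 to 0.97 TPM with 4-OI and 0.80 to 1.41 TPM with DMSO. The summed level of 6 fibroblast markers was 48.1 to 50.1 TPM with 4-OI and 56.0 to 58.2 TPM with DMSO. Its members moved in opposite directions: Pdgfra, at 32.3 TPM with 4-OI and 31.3 TPM with DMSO, was higher by 0.10 on the log2 scale, while Pdgfrb (-0.48), Col1a1 (-1.39) and Dcn (-1.39) were lower, Thy1 was near 0 and Lum was at 0. The part of these shifts in the results below was not tested.

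Autophagy encloses cytoplasm in a new membrane, the autophagosome, which then fuses with the lysosome. Small proteins of the ATG8 family (the LC3 and GABARAP branches) are attached to that membrane, and cargo receptors such as p62, the product of Sqstm1, bind both the cargo and the ATG8 proteins. Lysosomes degrade the content with acid hydrolases, and a proton pump, the V-ATPase, keeps them acidic. The transcription factors TFEB and TFE3 switch on many genes of both arms through a promoter element built around the bases CACGTG, and Sqstm1 is also a known target of NRF2, the regulator of antioxidant genes.

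The promoters of the genes with the largest changes in each arm, and that of Lamp1, which carried the most matches, are shown because they carry the extremes of the results and of the match counts. Sequences are those of RefSeq on GRCm38.p6, from 250 bases before to 50 bases after an annotated start, 5′ to 3′. Capitals mark CACGTG, whose reverse complement is the same, and TGACNNNGC on either strand, the core of the element that NRF2 binds.
Sqstm1 (chr11:50210771-50211070, minus strand): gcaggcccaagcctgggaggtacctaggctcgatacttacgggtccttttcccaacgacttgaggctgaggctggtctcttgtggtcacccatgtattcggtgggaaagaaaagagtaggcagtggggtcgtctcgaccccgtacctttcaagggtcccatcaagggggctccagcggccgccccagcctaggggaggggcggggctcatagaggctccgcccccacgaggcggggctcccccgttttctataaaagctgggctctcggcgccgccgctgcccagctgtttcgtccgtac
Gabarapl1 (chr6:129532942-129533241, plus strand): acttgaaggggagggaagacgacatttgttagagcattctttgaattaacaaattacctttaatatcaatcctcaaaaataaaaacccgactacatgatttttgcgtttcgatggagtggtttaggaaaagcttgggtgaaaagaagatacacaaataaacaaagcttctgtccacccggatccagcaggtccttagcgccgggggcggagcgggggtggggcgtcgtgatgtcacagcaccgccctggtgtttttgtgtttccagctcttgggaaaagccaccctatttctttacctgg
Ctsd (chr7:142387778-142388077, minus strand): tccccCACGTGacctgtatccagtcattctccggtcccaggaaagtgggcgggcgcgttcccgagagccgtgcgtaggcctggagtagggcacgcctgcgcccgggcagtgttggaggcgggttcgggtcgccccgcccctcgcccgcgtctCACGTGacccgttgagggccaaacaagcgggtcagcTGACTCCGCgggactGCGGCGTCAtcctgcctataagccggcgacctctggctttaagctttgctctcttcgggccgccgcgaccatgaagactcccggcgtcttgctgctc
Gaa (chr11:119267713-119268012, plus strand): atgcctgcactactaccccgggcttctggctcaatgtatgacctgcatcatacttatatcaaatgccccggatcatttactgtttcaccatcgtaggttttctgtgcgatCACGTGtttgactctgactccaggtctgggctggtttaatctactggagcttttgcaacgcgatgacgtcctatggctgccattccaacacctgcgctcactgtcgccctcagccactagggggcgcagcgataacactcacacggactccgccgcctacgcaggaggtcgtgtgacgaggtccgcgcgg
Lamp1 (chr8:13158911-13159210, plus strand): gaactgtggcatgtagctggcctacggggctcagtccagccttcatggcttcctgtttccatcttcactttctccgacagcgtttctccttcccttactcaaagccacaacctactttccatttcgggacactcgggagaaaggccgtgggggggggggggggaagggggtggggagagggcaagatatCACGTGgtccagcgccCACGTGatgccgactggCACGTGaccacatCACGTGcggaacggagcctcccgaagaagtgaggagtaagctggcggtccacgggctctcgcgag

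RefSeq entries were matched for 31 of the 35 genes, with 38 promoters, and Map1lc3a, Ctsb, Npc1 and Atp6v1h had none. CACGTG stood in 10 of 23 promoters of lysosome genes (43.5%) and in 0 of 15 promoters of autophagy genes. Among 12570 promoters of tested genes 9.91% held it, and among all 32851 promoters of the same length 7.15%. The Lamp1 promoter held 4 matches, those of Ctsd, Mcoln1 and Ctsa held 2 each, and Gaa, Glb1, Lgmn, Ctsl, Atp6v1a and Atp6v0d1 had 1 each. Of the lysosome genes with a promoter entry, 7 of 11 that were higher with 4-OI held CACGTG, 0 of 3 that were lower, and 3 of 6 that were not called. These counts are per gene, with a match in any of its promoters, whereas the shares above are per promoter. Ctsa and Lgmn each had a further promoter without CACGTG. TGACNNNGC was found in 5 of 23 promoters of lysosome genes (21.7%) and in 1 of 15 of autophagy genes (6.67%), that of Map1lc3b, against 14.2% of the promoters of tested genes. Neither motif was found in the windows of Sqstm1 and Gabarapl1. A match describes letters only, and a window without one says nothing about the factor.

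With 4-OI, 22 of the 35 genes were higher and 3 were lower at an adjusted p under 0.05 (edgeR's quasi-likelihood test, Benjamini-Hochberg over all 13531 genes tested). In the background, 19.3% of all tested genes were higher and 19.6% were lower. All 35 genes passed the filter on low counts. The sizes differed widely: Sqstm1 and Gabarapl1 rose by more than 1.5-fold, and each of the other 20 that rose did so by less. The 3 genes that fell, Npc2, Gpnmb and Cd63, all belong to the lysosome and fell by small amounts. In bulk RNA, a change in the number of cells that express a gene and a change in RNA per cell cannot be told apart.

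The autophagy and lysosome genes were much alike in their counts and their middle values and unlike in their extremes. Of the autophagy genes 8 of 12 (66.7%) were higher and 0 lower, and the log2 fold changes ran between -0.09 and 0.90 around a median of 0.15. Of the lysosome genes 14 of 23 (60.9%) were higher and 3 lower, and theirs ran between -0.12 and 0.45 around a median of 0.16. The median over all tested genes was 0.00. Without Sqstm1 and Gabarapl1, left out because their changes were the largest, the other 10 autophagy genes had a median of 0.12, with 6 higher. No lysosome genes were left out in the same way, so this median cannot be set against that of the lysosome genes. The 4-OI and DMSO libraries were fully separated upward, with no overlap, in 22 of the 35 genes, against 17.4% of all tested genes. They were fully separated downward in 2 of the 35, against 18.0% of all tested genes. These counts describe the lists, and no difference between the arms was tested.

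**Figure D1:**
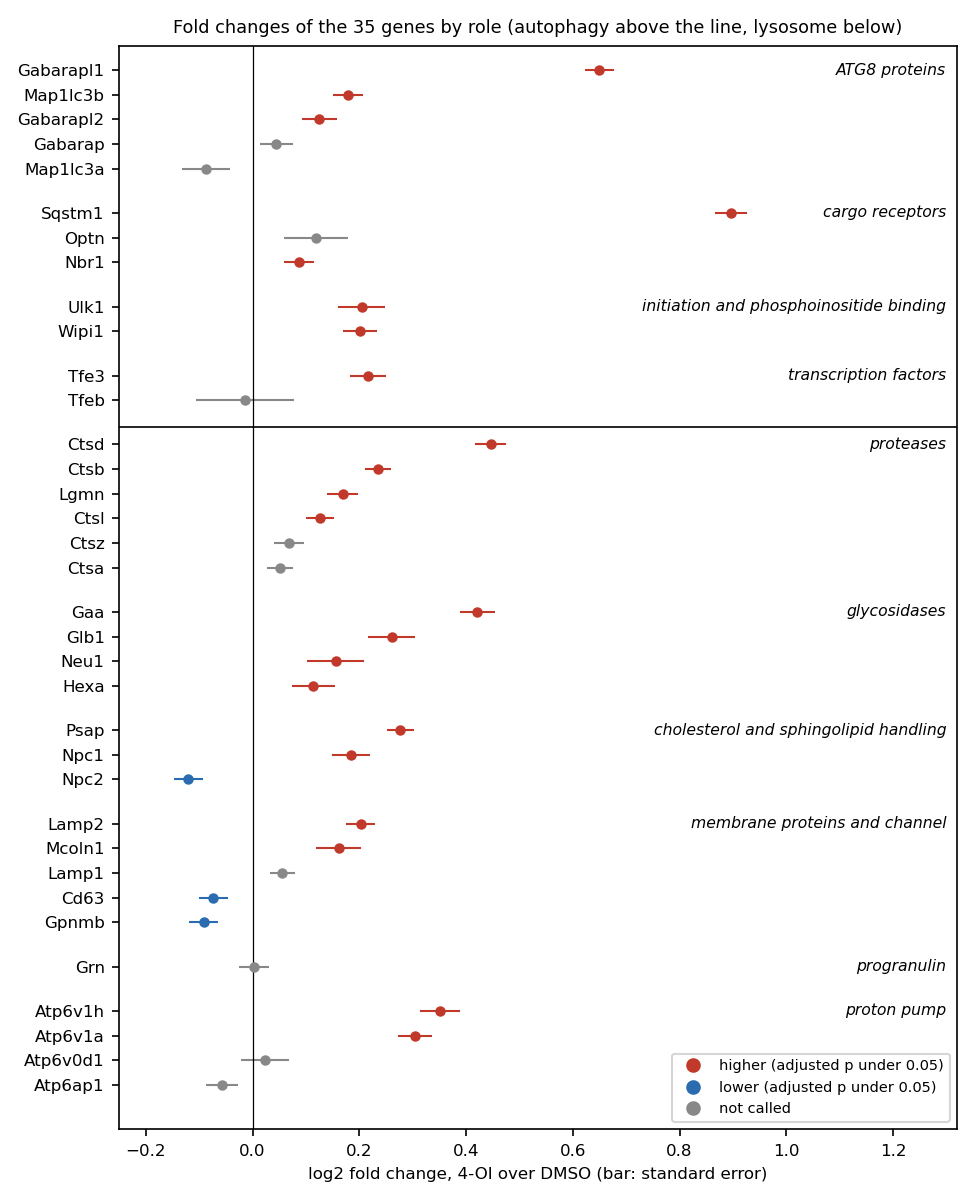
Log2 fold change (4-OI over DMSO, x axis) of each of the 35 genes, grouped by role, with the standard error as a bar and the colour giving the call. Sqstm1 (0.90) and Gabarapl1 (0.65) stand apart on the right, Npc2 (-0.12), Gpnmb (-0.09) and Cd63 (-0.07) are the 3 genes called lower, and the remaining genes lie between -0.09 and 0.45.

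The cargo receptor Sqstm1 (ENSMUSG00000015837) had 1245, 1292, 1257 and 1231 CPM in the 4-OI libraries, against 632, 681, 709 and 677 CPM in the DMSO libraries (CPM, counts scaled to library size with TMM factors). The lowest 4-OI library lay far above the highest DMSO library. Its log2 fold change came to 0.90 ± 0.03 (fit estimate ± standard error, as for the log2 fold changes given in parentheses below; edgeR adjusted p = 5.51e-15), and its rank by fold change was 163 of 13531. Per length, it was the third most abundant of the 35 transcripts in both groups, at 998, 1029.7, 1008 and 978 TPM in the 4-OI libraries and 506, 540.3, 561 and 530.5 TPM in the DMSO libraries. It made up 59.8% ± 0.34 of the summed TPM of the 12 autophagy genes with 4-OI and 48.0% ± 0.96 with DMSO (SD, n = 4 each). Leaving it out, that sum was 674 ± 11.5 TPM with 4-OI and 579.6 ± 7.21 TPM with DMSO.

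Of the other cargo receptors Nbr1 rose by a small amount and Optn did not pass the test. Nbr1, a receptor with a domain layout like that of p62, averaged 141 ± 1.71 CPM with 4-OI and 133 ± 5.21 CPM with DMSO (SD, n = 4 each), log2 fold change 0.09 ± 0.03 (edgeR adjusted p = 0.0163). Its groups overlapped, because DMSO replicate 3 stood at 140.9 CPM and the other DMSO libraries between 130.0 and 131 CPM. The call ended without DMSO replicate 1, 2 or 4 (edgeR adjusted p = 0.0551, 0.0544 and 0.0612) and with the GC and length correction (0.0564), in a range of 0.00137 to 0.0651 over 19 alternative ways of processing. Optn, optineurin, which serves in the removal of mitochondria and bacteria, had 14.3, 14.3, 14.7 and 14.3 CPM in the 4-OI libraries, against 13.6, 11.5, 14.1 and 13.7 CPM in the DMSO libraries. The 4-OI libraries of Optn were all higher, by a narrow margin over DMSO replicate 3, and the gene was not called (0.12 ± 0.06, edgeR adjusted p = 0.131).

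Within the ATG8 family, Gabarapl1 stood apart. It had 180.0, 195, 185 and 185 CPM in the 4-OI libraries, against 117, 120.4, 121 and 117 CPM in the DMSO libraries, so that the groups were well separated. Its log2 fold change came to 0.65 ± 0.03 (edgeR adjusted p = 1.73e-13). Map1lc3b, which encodes LC3B, the usual marker protein of autophagosomes, had 96.9, 95.7, 99.0 and 96.8 CPM in the 4-OI libraries, against 82.3, 85.9, 87.8 and 87.0 CPM in the DMSO libraries, again without overlap (0.18 ± 0.03, edgeR adjusted p = 3.40e-05). Zcchc14 overlaps it on the opposite strand, held 120% as many counts and was not called (-0.04). Gabarapl2 rose by less (0.13 ± 0.03, edgeR adjusted p = 0.0048), and in TPM its call ended (limma adjusted p = 0.101 at a pseudocount of 1), within 0.00157 to 0.157 over the alternatives. Gabarap was not called, at 102 ± 2.82 CPM with 4-OI and 99.4 ± 3.66 CPM with DMSO (SD, n = 4 each), log2 fold change 0.04 ± 0.03 (edgeR adjusted p = 0.268).

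Map1lc3a, which encodes LC3A, pointed the other way without passing the test. It had 34.6, 39.4, 38.3 and 35.6 CPM in the 4-OI libraries, against 37.7, 40.8, 38.2 and 40.4 CPM in the DMSO libraries, and the groups overlapped. Its log2 fold change came to -0.09 ± 0.05 (edgeR adjusted p = 0.137), and without 4-OI replicate 2 it was -0.12 and called lower (edgeR adjusted p = 0.0457, within 0.0457 to 0.413 over the alternatives). Per length, Gabarapl1 took 33.3% ± 0.70 of the summed ATG8 TPM with 4-OI and 24.6% ± 0.42 with DMSO (SD, n = 4 each). Gabarapl1 was the most abundant of the 5 with 4-OI, whereas Gabarap held that place in the DMSO libraries, at 128, 136, 130.0 and 132 TPM against 107, 109.6, 109 and 106 TPM for Gabarapl1. The family as a whole summed to 512 ± 10.3 TPM with 4-OI and 438.6 ± 8.31 TPM with DMSO (SD, n = 4 each).

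**Figure D2:**
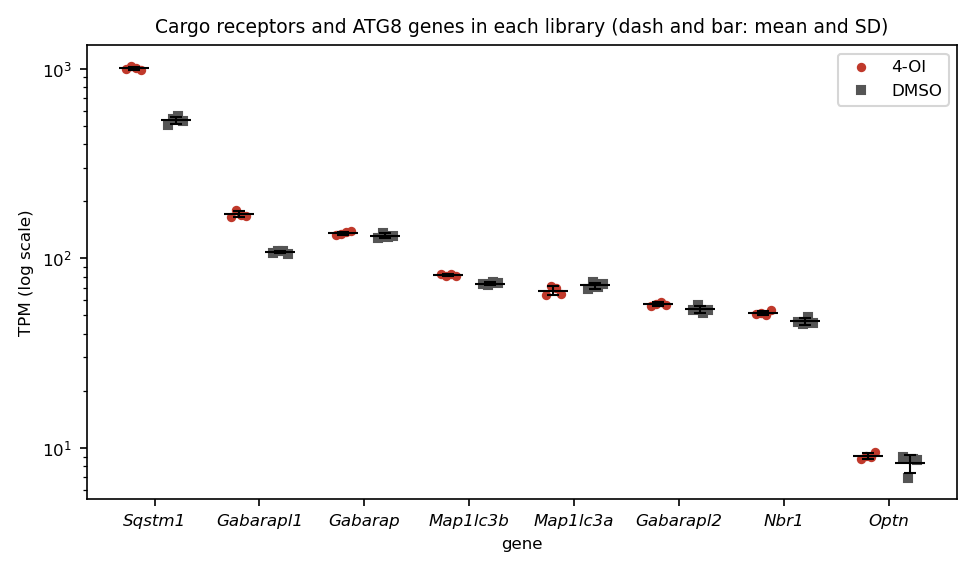
TPM (log axis) of the 3 cargo receptors and the 5 ATG8 genes in each library, 4-OI as circles left of DMSO as squares, with the mean and SD of 4 libraries. Sqstm1 and Gabarapl1 show a gap between the groups that is wide against their spread, the points of Map1lc3a overlap, and Optn has a low DMSO replicate at 6.90 TPM.

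Ulk1, the kinase that starts autophagosome formation, and Wipi1, which binds the phosphoinositide of the forming membrane, rose by like amounts. Ulk1 had 39.9, 40.8, 37.3 and 36.5 CPM in the 4-OI libraries, against 35.3, 33.4, 32.3 and 32.9 CPM in the DMSO libraries, with the lowest 4-OI library still above the highest DMSO library (0.20 ± 0.04, edgeR adjusted p = 0.00105). In TPM its call ended (limma adjusted p = 0.0821 at a pseudocount of 1), within 1.72e-05 to 0.153 over the alternatives. Wipi1 averaged 56.0 ± 1.18 CPM with 4-OI and 48.8 ± 0.757 CPM with DMSO (SD, n = 4 each) and was called under all 19 alternatives (0.20 ± 0.03, edgeR adjusted p = 4.01e-05).

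Of the transcription factors, Tfe3 rose and Tfeb did not pass the test. Tfe3 had 73.8, 79.1, 77.2 and 73.4 CPM in the 4-OI libraries, against 67.3, 66.6, 65.2 and 62.6 CPM in the DMSO libraries, with no overlap (0.22 ± 0.03, edgeR adjusted p = 3.41e-05). Tfeb was the least abundant of the 35 transcripts at 4.17 TPM in both groups, and had 6.26, 6.84, 5.93 and 5.03 CPM in the 4-OI libraries, against 6.17, 5.82, 5.71 and 6.41 CPM in the DMSO libraries. Its 4-OI libraries spread widely around the DMSO values (-0.01 ± 0.09, edgeR adjusted p = 0.924). Both factors are mainly controlled by phosphorylation and movement into the nucleus, which RNA levels do not show.

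Among the lysosomal proteases 4 of 6 rose (66.7%, against 19.3% of all tested genes), led by Ctsd, the aspartic protease cathepsin D. Ctsd had 458, 469.7, 472 and 441 CPM in the 4-OI libraries, against 321, 346, 352 and 332 CPM in the DMSO libraries, far apart in the 2 groups, log2 fold change 0.45 ± 0.03 (edgeR adjusted p = 2.65e-10). An overlapping gene on the same strand, Gm49369, held 9.25% as many counts and was also higher (0.56), so reads of these genes may be shared. The cysteine protease Ctsb had 567, 587, 578 and 562 CPM in the 4-OI libraries, against 469.9, 499.8, 492 and 488 CPM in the DMSO libraries, again without overlap (0.23 ± 0.03, edgeR adjusted p = 2.72e-07). It overlaps Fdft1 on the opposite strand, which held 24.3% as many counts and had a log2 fold change of 0.13. Lgmn, the asparagine-specific protease legumain, rose by 0.17 (edgeR adjusted p = 0.000136).

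Ctsl, cathepsin L, was the most abundant of the 35 transcripts, with 1307 ± 48.5 TPM with 4-OI and 1234 ± 43.2 TPM with DMSO (SD, n = 4 each). In CPM it had 828, 788, 779 and 789.9 CPM in the 4-OI libraries, against 703, 739, 751 and 725 CPM in the DMSO libraries, log2 fold change 0.13 ± 0.03 (edgeR adjusted p = 0.000797). In TPM the groups overlapped and the call ended (limma adjusted p = 0.108 at a pseudocount of 1), within 1.64e-06 to 0.251 over the alternatives. Ctsa, the carboxypeptidase that also protects other hydrolases, and Ctsz were not called (0.05 ± 0.02 and 0.07 ± 0.03, edgeR adjusted p = 0.0984 and 0.066). Both were called higher when libraries were scaled by their totals (0.0297 and 0.0231), and Ctsz also without 4-OI replicate 4 (0.0269) and without a filter on low counts (0.0306).

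All 4 glycosidases rose, against 19.3% of all tested genes, and the calls of Neu1 and Hexa depended on the processing, as given below. Gaa, the acid alpha-glucosidase that degrades glycogen in lysosomes, had 206, 209, 206 and 189 CPM in the 4-OI libraries, against 145, 156, 156 and 148 CPM in the DMSO libraries. The 4-OI libraries were all above the DMSO libraries, with 4-OI replicate 4 below the other 3 (0.42 ± 0.03, edgeR adjusted p = 2.44e-09). Glb1, lysosomal beta-galactosidase, averaged 32.0 ± 0.613 CPM with 4-OI and 26.8 ± 1.31 CPM with DMSO (SD, n = 4 each), log2 fold change 0.26 ± 0.04 (edgeR adjusted p = 8.02e-05). It shares its locus with Tmppe on the same strand, which held 37.1% as many counts and had a log2 fold change of -0.11 that was not called.

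The sialidase Neu1 and the beta-hexosaminidase subunit Hexa rose by less (0.16 ± 0.05 and 0.11 ± 0.04, edgeR adjusted p = 0.0282 and 0.0336), and the groups of Hexa overlapped. The call of Hexa was lost on leaving out 4-OI replicate 1 (edgeR adjusted p = 0.0532), 4-OI replicate 3 (0.108), DMSO replicate 1 (0.0572) or DMSO replicate 4 (0.153). That of Neu1 was lost on leaving out 4-OI replicate 1 (0.0777), 4-OI replicate 2 (0.0661), DMSO replicate 1 (0.0749) or DMSO replicate 2 (0.0788). With DESeq2 neither was called (adjusted p = 0.0639 for Hexa and 0.0892 for Neu1), nor in TPM, and the adjusted p over all alternatives ranged over 0.0147 to 0.171 for Hexa and 0.0162 to 0.149 for Neu1.

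Genes of lipid handling split. Psap, the precursor of the saposins that help break down sphingolipids, had 781, 784, 771 and 747 CPM in the 4-OI libraries, against 616, 639, 658 and 633 CPM in the DMSO libraries, without overlap (0.28 ± 0.03, edgeR adjusted p = 4.00e-08). Npc1 and Npc2 pass cholesterol out of the lysosome one after the other, Npc2 in the lumen and Npc1 in the membrane. Npc1 rose, at 62.6 ± 2.88 CPM with 4-OI and 55.0 ± 0.788 CPM with DMSO (SD, n = 4 each), log2 fold change 0.18 ± 0.04 (edgeR adjusted p = 0.000295). Its neighbour on the opposite strand, Rmc1, overlaps it, held 82.4% as many counts and was higher by 0.23. Npc2 fell, with 188, 196, 198 and 189 CPM in the 4-OI libraries, against 203, 208, 218 and 210.0 CPM in the DMSO libraries, all 4-OI libraries lying below all DMSO libraries (-0.12 ± 0.03, edgeR adjusted p = 0.00126). In TPM without a filter its call ended (limma adjusted p = 0.0580, within 0.000159 to 0.058 over the alternatives).

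Membrane proteins moved both ways. Lamp2, a main protein of the lysosomal membrane, had 245, 235, 249.8 and 252 CPM in the 4-OI libraries, against 206, 215, 221 and 212 CPM in the DMSO libraries, without overlap (0.20 ± 0.03, edgeR adjusted p = 6.49e-06). Its relative Lamp1 had 699, 694, 723 and 716 CPM in the 4-OI libraries, against 681, 679.9, 689.6 and 674 CPM in the DMSO libraries. The groups of Lamp1 were separated, yet the change was small and was not called (0.06 ± 0.02, edgeR adjusted p = 0.0632). Lamp1 was called higher with DESeq2 (adjusted p = 0.0115), with library totals (0.0137), without 4-OI replicate 2 (0.0372) and in TPM (0.0399), within 0.0115 to 0.252 over the alternatives. Mcoln1, the calcium channel TRPML1, rose by 0.16 (edgeR adjusted p = 0.00508), and in TPM its groups overlapped and the call ended (limma adjusted p = 0.510 at a pseudocount of 1, within 0.0025 to 0.648 over the alternatives).

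Gpnmb, a glycoprotein of melanosomes and lysosomes, had 128, 133, 135 and 128 CPM in the 4-OI libraries, against 137, 144, 140.3 and 137 CPM in the DMSO libraries. All 4-OI libraries lay below all DMSO libraries by a small step (-0.09 ± 0.03, edgeR adjusted p = 0.00979). The call ended without 4-OI replicate 1 (edgeR adjusted p = 0.0502) and in TPM (limma adjusted p = 0.448), within 0.000938 to 0.623 over the alternatives. Cd63, a tetraspanin of late endosomes and the second most abundant of the 35 transcripts, had 582, 594, 584 and 577 CPM in the 4-OI libraries, against 581, 624, 625 and 629 CPM in the DMSO libraries. DMSO replicate 1 lay within the 4-OI values and the other 3 above them (-0.07 ± 0.03, edgeR adjusted p = 0.0337). This call ended without 4-OI replicate 1, 3 or 4 (0.0953, 0.0731 and 0.0570), without DMSO replicate 2, 3 or 4 (0.0981, 0.0801 and 0.111), with library totals (0.107) and without a filter on low counts (0.0669), within 0.00279 to 0.279 over the alternatives. Grn, the precursor of granulins, had 185 ± 6.66 CPM with 4-OI and 185 ± 4.97 CPM with DMSO (SD, n = 4 each), log2 fold change 0.0020 ± 0.03 (edgeR adjusted p = 0.965).

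Of the proton pump genes 2 of 4 rose (50%, against 19.3% of all tested genes). These were Atp6v1a and Atp6v1h, subunits of the V1 sector that hydrolyses ATP in the cytosol. Atp6v1h had 60.1, 60.9, 63.2 and 65.9 CPM in the 4-OI libraries, against 47.0, 48.1, 51.7 and 49.5 CPM in the DMSO libraries (0.35 ± 0.04, edgeR adjusted p = 2.90e-07), and Atp6v1a averaged 171 ± 8.02 CPM with 4-OI and 139 ± 4.28 CPM with DMSO (SD, n = 4 each), log2 fold change 0.30 ± 0.03 (edgeR adjusted p = 2.12e-07). Neither gene's groups overlapped. Atp6v0d1, of the V0 sector in the membrane, and the accessory subunit Atp6ap1 were not called (0.02 ± 0.05 and -0.06 ± 0.03, edgeR adjusted p = 0.717 and 0.135). Atp6ap1 was called lower without DMSO replicate 4 (edgeR adjusted p = 0.0404) and with the GC and length correction (0.0443), within 0.0271 to 0.378 over the alternatives.

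**Figure D3:**
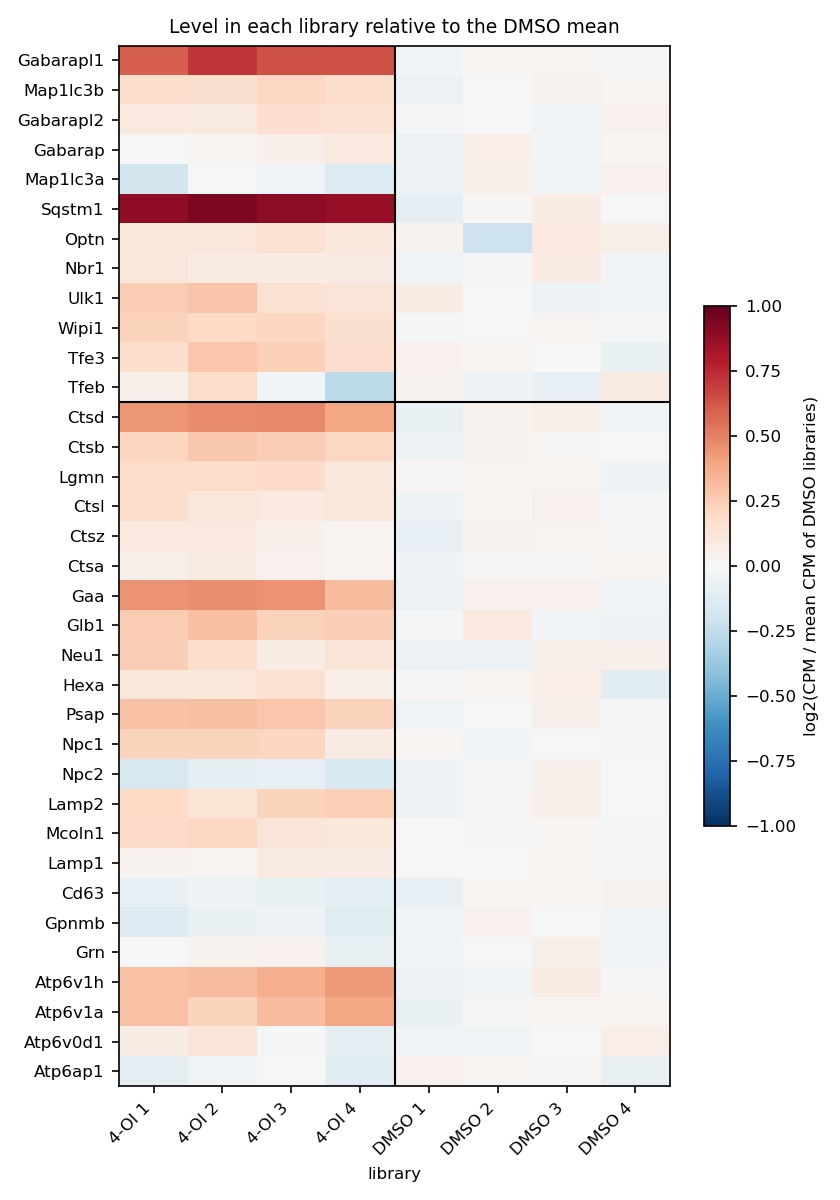
Each of the 35 genes (rows, autophagy above the horizontal line) in each library (columns, the 4-OI libraries left of the vertical line), coloured by log2 of CPM over the mean CPM of the DMSO libraries. The 4-OI columns are deepest for Sqstm1 and Gabarapl1, then Ctsd, Gaa and Atp6v1h, and 4-OI replicate 4 is paler than the other 3 for Gaa and Npc1 and deeper for Atp6v1h.

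Per length, the 23 lysosome genes together made up far more RNA than the 12 autophagy genes, in a comparison of lists of unequal size. With 4-OI, Ctsl (1307 TPM) and Cd63 (1052 TPM) were large parts of the lysosome sum, and Sqstm1 (1003 TPM) of the autophagy sum. The 23 lysosome genes summed to 5495, 5544, 5400 and 5278 TPM in the 4-OI libraries, against 4951, 5145, 5155 and 4991 TPM in the DMSO libraries. The 12 autophagy genes summed to 1660, 1719, 1683 and 1649 TPM in the 4-OI libraries, against 1081, 1130.0, 1141 and 1105 TPM in the DMSO libraries. Neither sum overlapped between the groups. Of the 5 most abundant transcripts, Ctsl, Cd63, Sqstm1, Lamp1 and Psap kept the same order in both groups, and among them Sqstm1 and Psap had log2 fold changes above 0.2.

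The wider pathway was read from 6 further lists of 161 genes, of which 149 could be tested, with 49 higher (32.9%, against 19.3% of all tested genes) and 15 lower (10.1%, against 19.6%). Of 36 core autophagy genes 12 were higher (33.3%) and 1, Epg5 (-0.15), was lower (2.78%). Wdr45 (0.62 ± 0.04, edgeR adjusted p = 3.57e-10), a relative of Wipi1, led, followed by the ATG4-type protease Atg4c (0.37) and Tecpr1 (0.28). Pik3c3, the lipid kinase VPS34, was higher by 0.22. Among the other cargo receptors and their regulators 5 of 17 were higher (29.4%) and 4 lower (23.5%), the lower share being near that of all tested genes (19.6%). The higher ones included Calcoco1 (0.47), the mitophagy kinase Pink1 (0.43) and the receptor of endoplasmic reticulum Ccpg1 (0.40), and the 4 lower ones were the mitophagy receptors Bnip3 (-0.67), Phb2 (-0.15) and Bnip3l (-0.11) and the scaffold Wdfy3 (-0.09).

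Of 36 further lysosomal hydrolases tested, 12 were higher (33.3%, against 19.3% of all tested genes). Another 2, Ctsc (-0.21) and Arsb (-0.08), were lower (5.56%, against 19.6%). Lipa, the acid lipase that frees fatty acids and cholesterol, averaged 49.4 ± 0.574 CPM with 4-OI and 23.5 ± 0.662 CPM with DMSO (SD, n = 4 each), log2 fold change 1.08 ± 0.04 (edgeR adjusted p = 1.21e-14), larger than that of any of the 35 genes. Manba (0.36) and Gm2a (0.33) came next. In the list of lysosomal membrane and sorting proteins 9 of 23 were higher (39.1%) and 3 lower (13.0%). Sort1, sortilin, had the largest log2 fold change (1.39) at 0.883 CPM with 4-OI and 0.346 CPM with DMSO, and the sialic acid exporter Slc17a5 (0.47) and the arginine sensor Slc38a9 (0.38) followed. Lower were the channel Tpcn1 (-0.15), the chloride exchanger Clcn7 (-0.15) and the mannose 6-phosphate receptor Igf2r (-0.15), while the other such receptor, M6pr, was higher by 0.17.

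Of 15 further V-ATPase genes tested, 7 were higher (46.7%, against 19.3% of all tested genes) and 1 lower (6.67%, against 19.6%). Among the higher ones were Atp6v0a1 (0.55 ± 0.04, edgeR adjusted p = 1.02e-09), Atp6ap2 (0.26) and Atp6v0b (0.21). Atp6v1g2 (-0.64), at 1.04 CPM with 4-OI and 1.63 CPM with DMSO, was the lower one. The last list was built around mTORC1, the kinase complex that holds TFEB and TFE3 in the cytosol. Its tested genes were parts and regulators of mTORC1, Mitf, and the further transcription factors Zkscan3, Foxo1 and Foxo3. Of these, 4 of 22 were higher and 4 lower, close to the background of 19.3% and 19.6%. Mitf rose, at 9.99 ± 0.536 CPM with 4-OI and 6.42 ± 0.415 CPM with DMSO (SD, n = 4 each), log2 fold change 0.64 ± 0.07 (edgeR adjusted p = 4.49e-07), and so did Deptor (0.52), Lamtor5 (0.15) and Rptor (0.15). Foxo3 (-0.30), Mlst8 (-0.17), Fnip1 (-0.11) and Rragc (-0.11) were lower.

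**Figure D4:**
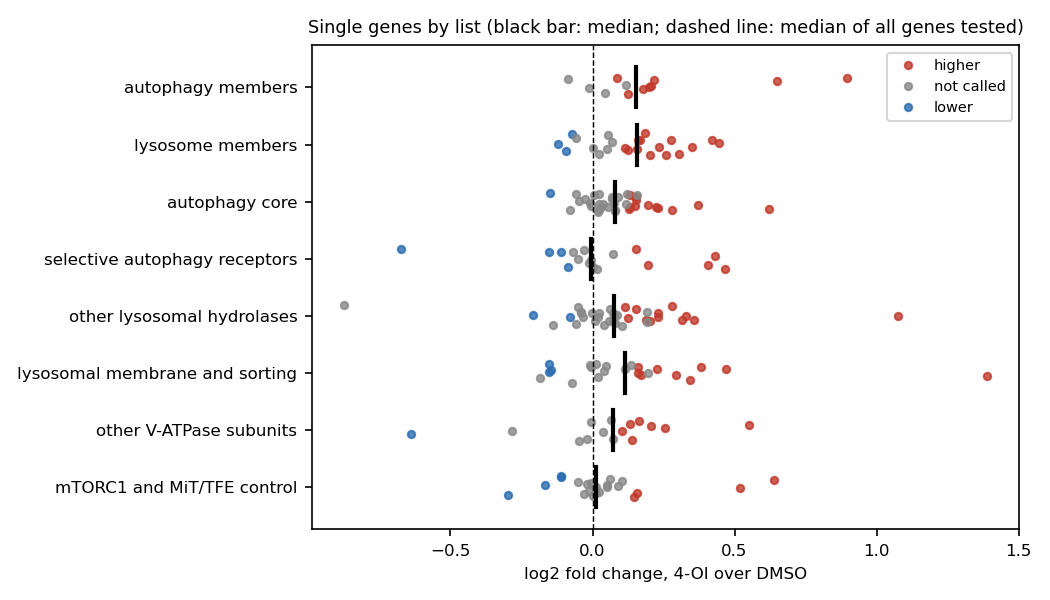
Log2 fold changes (4-OI over DMSO, x axis) of single genes in the 2 groups of the 35 genes and the 6 further lists, coloured by call, with each list's median as a black bar and the median of all tested genes as a dashed line. The medians of the autophagy (0.15) and lysosome genes (0.16) lie furthest right, and those of the further cargo receptor and mTORC1 lists lie close to the dashed line.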

How the data were processed

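The submitters' processing notes name RSEM 1.3.3, STAR 2.7.8a, cutadapt 2.3, MultiQC 1.7 and FastQC 0.11.8 and the build GRCm38, with no role or order. They name no annotation release and no strand setting, so reads of overlapping genes (overlaps from GENCODE M21) may be shared. The authors deposited expected counts per gene, here whole numbers in every cell, and TPM, which divides by transcript length. The members and lists were chosen with earlier results of these data known.

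Expected counts were tested with edgeR 4.0.16 in R 4.3.3: filterByExpr (minimum count 10), TMM factors, and a quasi-likelihood F test (two-sided) with treatment as the only term, with Benjamini-Hochberg adjustment over 13531 genes and a threshold of 0.05. Standard errors were derived from the fold change and the F statistic. CPM are counts over library totals times TMM factors. TPM was tested with limma 3.58.1 on log2(TPM + 1), for genes at 0.5 TPM or more in 4 libraries. DESeq2 1.42.0 and the other alternatives are compared in the closing section; the GC and length correction took both from GENCODE M21 transcripts. No listed symbol stood on more than 1 row. Pairs of libraries of a group differed by 1.90 to 4.79 times sampling noise, so none was treated as a library deposited more than once; this does not show that they are independent cultures. The total count sets the precision for rare transcripts. Named genes are the 35 members and, of each further list, the 3 highest and 3 lowest called genes, with others named to spell out counts or, as with Pik3c3 and M6pr, after their values were seen. Motifs were searched on both strands.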

Additional observations from a re-analysis of the deposited data

Results flagged for a closer look

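In 70 groups of 4 libraries (35 genes in each treatment), the highest or lowest library stood apart in 6: its gap to the nearest other library, over the range of the 4, passed Dixon's critical value for 4 values. Chance gives about 5% of groups. In 3 of these the library was 4-OI replicate 4, and it was the lowest each time. Gaa had 188.9 CPM there, against 206 to 209 CPM in the other 4-OI libraries, and without that library its log2 fold change was 0.45. Npc1 had 58.3 CPM there, against 63.8 to 64.3 CPM, and Lgmn had 81.9 CPM, against 86.0 to 86.8 CPM. Optn was high in 4-OI replicate 3, at 14.7 CPM with the other 4-OI libraries at 14.3 CPM each. Nbr1 was high in DMSO replicate 3, at 140.9 CPM with the other DMSO libraries at 130.0 to 131 CPM. Cd63 was low in DMSO replicate 1, at 581 CPM with the others at 624 to 629 CPM.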

How the results depend on the processing

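Of 19 alternatives (8 of which left out 1 library), 15 of the 22 higher members were called higher under all, 7 lost the call under at least 1, and each of the 3 lower members lost it under at least 1, as given in the report. Across alternatives other than leaving out a library, 6 to 8 autophagy and 10 to 17 lysosome members were higher. Over the same alternatives 1362 to 3020 of all tested genes were higher. The deviations of same-numbered libraries correlated at r = 0.351, -0.114, 0.169 and -0.0740 for numbers 1 to 4 (9511 genes), and 2 of 4 numbers, 1 and 3, correlated best with their own, so a pairing by number was not established. With a replicate block 2526 genes were higher and 2618 lower, and the autophagy (8 higher, 0 lower) and lysosome members (14 higher, 3 lower) kept their counts; of the core autophagy genes 2 were lower with the block and 3 with the block and GC and length correction. Below, the cause of each shift was not tested.

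With limma on TPM (pseudocount 1, pseudocount 0.1, and 1 without a filter), 1725, 1718 and 1362 genes were higher and 1560, 1550 and 1284 lower. In the same order, 1, 1 and 0 lysosome members, 2, 2 and 2 cargo receptors of the further list, and 2, 2 and 1 mTORC1 genes were lower, and 0 core autophagy genes, further hydrolases and further V-ATPase genes in each. Without a filter 4 core autophagy genes and 7 further hydrolases were higher and 1 membrane and sorting gene lower; with it, 5 membrane and sorting genes were higher at both pseudocounts, and at 0.1 so were 7 mTORC1 genes. The median of the lysosome members was 0.119, 0.122 and 0.119. With library totals 7 mTORC1 genes were higher and the median of the autophagy members was 0.170. All tested genes shifted the same way, to 3020 higher and 2323 lower, against 2607 and 2646 in the main fit. Their median was 0.018. With library totals, DESeq2 or no filter on low counts 1 further hydrolase was lower, where 2323, 2207 and 2474 of all tested genes were lower. Of the core autophagy genes 2 were lower at a mean CPM of 1 or more and 3 with the GC and length correction. Of all tested genes 2686 were lower at that mean CPM. With the correction 2479 were higher and 3040 lower, and with the replicate block added 2445 and 3013.

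Leaving out each library in turn gave 0 to 1 autophagy members lower, 1 to 3 lysosome members lower, 1 to 3 core autophagy genes lower, 1 to 3 further hydrolases lower and 2 to 4 mTORC1 genes lower, and medians of 0.140 to 0.168 for the autophagy members. In these fits 2369 to 2666 of all tested genes were lower. Of the members' log2 fold changes, those near 0 changed sign: Tfeb was 0.0037 with library totals and -0.082 to 0.067 on leaving out libraries. Grn was -0.0013 at a mean CPM of 1 or more, -0.0071 with the GC and length correction, -0.0082 with the replicate block added, -0.0106, -0.0107 and -0.0106 in TPM, and -0.013 to 0.026 on leaving out libraries. Atp6v0d1 was -0.013 to 0.063 on leaving out libraries. Tfeb, the least abundant member at 6.02 CPM with 4-OI and 6.03 CPM with DMSO, had a standard error of 0.09 on the log2 scale; its libraries varied by 12.6% with 4-OI and 5.34% with DMSO, and the part of depth in this was not separated.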

Other observations

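For Mcoln1 the 2 deposited scales differed. In TPM it had 33.5, 45.2, 33.3 and 43.2 in the 4-OI libraries, against 34.9, 33.8, 36.9 and 37.3 in the DMSO libraries, a coefficient of variation of 16.3% with 4-OI and 4.62% with DMSO. In CPM the same libraries varied by 3.09% with 4-OI and 1.06% with DMSO. Counts per TPM relative to the mean of the gene were 1.20, 0.899, 1.14 and 0.870 in the 4-OI libraries, so libraries with like counts received unlike TPM. Over the 8 libraries this ratio varied by 11.7% for Mcoln1, and 95.0% of 10094 genes with at least 100 counts in every library varied less. The cause was not tested. Gpnmb also varied more in TPM (6.03% with 4-OI and 8.03% with DMSO) than in CPM (2.65% and 2.42%).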
